A study of Mus musculus with 72 samples.

Results

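The step from 20% to 40% caloric restriction was examined in the liver of male C57BL/6J mice, an inbred strain, on 12 Illumina bead arrays out of the 72 in the series. The members were the 6 arrays of males at 40% restriction and the 6 of males at 20% restriction, 1 mouse per array, chosen by the strain, sex and diet letters in the names of the signal columns. Of 25697 probes on the array, 10311 were tested because they were above background (detection p-value under 0.01) on at least 6 of the 12 arrays. The whole series crossed 2 strains (DBA2/J and C57BL/6J), both sexes and 3 diets, with 6 mice in each of 12 groups, and males fed ad libitum (AL) are given here as a reference. All mice of both strains were bred in house from purchased founders, ate 1 chow, carried no transgene, and were killed at 23 to 24 months of age over 3 days. Restriction had begun at 6 months and lasted 17 to 18 months. On the day they were killed the restricted mice of both levels had not been given their daily ration, whereas AL mice ate until the end, so meal timing was shared within the 40% against 20% comparison and differed from AL along with the amount eaten.

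The liver of a rodent is sexually dimorphic because growth hormone is released in pulses in males and more steadily in females. The male pattern of pulses acts through the transcription factor STAT5 to maintain male-biased genes such as the major urinary proteins, small pheromone carriers that are secreted into blood and pass into urine, while several cytochrome P450 genes of the Cyp2b family are higher in females. Caloric restriction and fasting are known to lower the major urinary proteins and IGF-1, and to raise genes of fat oxidation and glucose production.

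The source names of the male samples carry the letters used for females, whereas their titles and gender entries say male, and the titles were followed. The 12 arrays had log2 levels of Xist, which is transcribed from the inactive X chromosome, of 4.16 to 4.40, against 5.37 to 6.03 in C57BL/6J females, and levels of the Y-linked Eif2s3y of 7.08 to 8.13, against 4.12 to 4.25. Complement C5 (Hc), which DBA2/J mice lack, was at 9.44 to 9.89 against 6.25 to 7.03 in DBA2/J males. Transthyretin (Ttr), a liver secretory protein, was at 14.0 to 14.7. The probe for albumin was dim on the 12 arrays, at 4.48 to 5.04. It was as dim in C57BL/6J females (4.31 to 5.07) and DBA2/J males (4.29 to 5.14). Probes above background made up 39.4% ± 2.56 (SD, n = 6) at 20% and 40.6% ± 1.23 (SD, n = 6) at 40% (exact permutation test, two-sided, p = 0.368), and mean raw signal was 196 ± 36.4 and 188 ± 17.6 (exact permutation test, p = 0.643). Array CM-106, of a male at 40%, stood apart. It lay at 54.2 on the first principal component (32.2% of the variance), with the other 11 between -16.1 and 1.91. Its median correlation with its own group was 0.947, against 0.973 to 0.986 for the others. Calls and list medians are therefore given with and without it where it changed them.

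Few probes separated the 2 levels of restriction. In limma's fit of the 12 arrays, 8 of 10311 probes (0.0776%) passed a Benjamini-Hochberg adjusted p of 0.05, 4 higher at 40% (0.0388%) and 4 lower (0.0388%). Without array CM-106 there were 5 (0.0485%), 3 higher (0.0291%) and 2 lower (0.0194%), all of them among the 8. At an unadjusted p under 0.05 there were 1265 probes (12.3%), and 1152 without array CM-106. With 1 probe per gene, the brightest, 1 gene of 7241 was higher (0.0138%) and 3 were lower (0.0414%). The median SE over genes was 0.13 on the log2 scale, the median difference was 0.0208, and the groups of 6 did not overlap for 41 genes higher (0.566%) and 38 lower (0.525%) at 40%. Of the 7241 genes, 3935 had a difference above 0, against which the splits of the lists below can be read. By size alone, 13 genes were at least 2-fold higher and 19 at least 2-fold lower. When all 72 arrays were fitted with 12 group means, which share the estimate of spread, 83 probes (0.805%) passed, 41 higher (0.398%) and 42 lower (0.407%), and all 8 were among them. For a gene that varied more in these males than in the other groups, the p-values of that fit are too small. Only 19 passed in that fit without array CM-106, of which 18 were among the 83. The adjusted p-values of the 8 lay between 0.0152 and 0.0406. Leaving out array CM-57 or array CM-101 left 0 calls (1072 and 1186 probes at an unadjusted p under 0.05), leaving out array CM-53 left 1, array CM-103 left 2 and array CM-51 left 4, and leaving out array CM-52 gave 13.

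The major urinary proteins were lower at 40% than at 20%. Mup2, a main liver-derived urinary protein, had log2 levels of 5.50, 6.43 and 10.4 (lowest, median, highest) at 40%, against 10.7, 11.5 and 12.5 at 20% and 13.4, 13.6 and 14.0 in AL males. The 40% and 20% groups did not overlap, and arrays CM-114 and CM-113 were the highest of the 40% arrays. Mup2 fell 20.2-fold (log2 -4.33 ± 0.67, adjusted p = 0.0200). A second Mup2 probe, dimmer, fell too (log2 -4.20 ± 0.66, adjusted p = 0.0209). Without array CM-106 the dimmer probe did not pass (-4.09 ± 0.70, adjusted p = 0.0589), and it passed in 6 of the 12 single-array removals. For the brighter probe the difference without array CM-106 was -4.16 ± 0.70 with an adjusted p of 0.0571, which no longer passed. Over single-array removals the brighter probe ranged from -4.96 to -3.98 with adjusted p-values from 0.000433 to 0.0798. It missed the threshold without array CM-57, CM-51, CM-53, CM-106, CM-103 or CM-101.

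Of the 5 tested major urinary protein genes, 1 passed (Mup2), against 0.0414% of all genes called lower, and all 5 were lower, with a median difference of -2.36 on the log2 scale against 0.0208 over all genes, and -2.07 without array CM-106. The other 4 did not pass in the fit of the 12 arrays. Mup20, known as darcin, the male pheromone that females are attracted to, had levels of 4.25, 5.62 and 7.05 at 40%, 5.17, 8.80 and 9.23 at 20%, and 8.68, 9.89 and 10.3 in AL males. Its difference was -2.36 ± 0.65 (adjusted p = 0.304). Array CM-52, at 20%, had the lowest Mup20 level of its group, 5.17, inside the range at 40%, and without that array the difference was -2.95 with an adjusted p of 0.0259, the only removal of an array under which it passed (range of adjusted p 0.0259 to 0.480). Mup6 differed by -3.38 ± 0.60 (adjusted p = 0.0638), from 9.78 to 11.8 at 20% and from 5.63 to 9.87 at 40%. Its groups overlapped by 1 array, CM-114. Mup5 differed by -2.29 ± 0.66 and Mup21 by -1.81 ± 0.56 (both adjusted p = 0.304). In the fit of all 72 arrays Mup2, Mup5, Mup6 and Mup20 passed and Mup21 did not (adjusted p = 0.102), where 0.47% of all genes were called lower. Without array CM-106 Mup5 lost its call in that fit (adjusted p = 0.124), while Mup20 was at 0.0462. These genes are near-identical copies, so a probe may take up the transcripts of several of them.

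The start regions of the urinary protein genes are shown because these genes moved together. Of 10 genes looked up, 7 had a window of 250 bases before to 50 after the start in the RefSeq table of build GRCm38.p6, Mup2, Mup6 and Mup21 among them, all on chromosome 4. Mup2 lies at chr4:60139807-60140106 on the minus strand, Mup6 at chr4:60003231-60003530 on the plus strand and Mup21 at chr4:62150792-62151091 on the minus strand. Capitals mark ATTGAT on either strand, the core of the site bound by HNF6 (ONECUT1), a hepatocyte factor.
Mup2: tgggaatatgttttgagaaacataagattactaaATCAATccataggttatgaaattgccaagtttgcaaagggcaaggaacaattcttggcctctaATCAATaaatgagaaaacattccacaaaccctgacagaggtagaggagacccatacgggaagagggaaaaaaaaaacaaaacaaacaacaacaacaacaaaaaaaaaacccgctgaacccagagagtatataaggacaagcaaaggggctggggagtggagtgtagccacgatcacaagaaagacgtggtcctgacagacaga
Mup6: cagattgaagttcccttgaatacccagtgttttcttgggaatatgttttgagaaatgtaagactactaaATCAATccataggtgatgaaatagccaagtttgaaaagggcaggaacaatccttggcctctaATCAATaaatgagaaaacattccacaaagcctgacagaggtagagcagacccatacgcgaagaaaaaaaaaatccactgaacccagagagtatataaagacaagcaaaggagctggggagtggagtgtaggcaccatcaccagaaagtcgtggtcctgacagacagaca
Mup21: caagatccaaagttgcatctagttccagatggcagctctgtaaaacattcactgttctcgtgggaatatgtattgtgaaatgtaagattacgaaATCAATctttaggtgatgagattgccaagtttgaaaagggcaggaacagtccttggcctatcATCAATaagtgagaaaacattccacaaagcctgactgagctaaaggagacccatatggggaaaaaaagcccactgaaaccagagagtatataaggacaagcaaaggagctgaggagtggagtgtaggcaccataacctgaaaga
Each of the 3 windows held 2 matches, whereas 7.54% of the 32851 windows in the table held at least 1. The 3 genes are copies of each other and their windows are alike around both sites. They are therefore not independent observations to set against that share. For comparison, the window of Cyp2b13, a female-biased gene described below, lies at chr7:26061245-26061544 on the plus strand and held 0 matches.
Cyp2b13: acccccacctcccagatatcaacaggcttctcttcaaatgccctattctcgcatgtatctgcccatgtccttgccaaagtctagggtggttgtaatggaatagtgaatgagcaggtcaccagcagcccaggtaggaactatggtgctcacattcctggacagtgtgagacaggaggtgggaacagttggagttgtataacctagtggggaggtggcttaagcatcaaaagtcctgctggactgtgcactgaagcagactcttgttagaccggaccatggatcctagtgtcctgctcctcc
The search covered 5 motifs on both strands. The STAT5 core TTCNNNGAA was in 8.3% of all windows, the E-box CACGTG in 7.15%, a direct repeat of 2 PPAR half-sites in 0.0396% and an HNF1 site in 0.399%. None of these 4 was in the windows of Mup2, Mup6, Mup21, Susd4, Gstp2, Mdh2 or Cyp2b13, and ATTGAT was in those of the urinary protein genes alone among the 7. No overlap between motifs arose in the printed windows. The choice of motifs was made with the results known, and a match is a description of the letters.

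**Figure D1:**
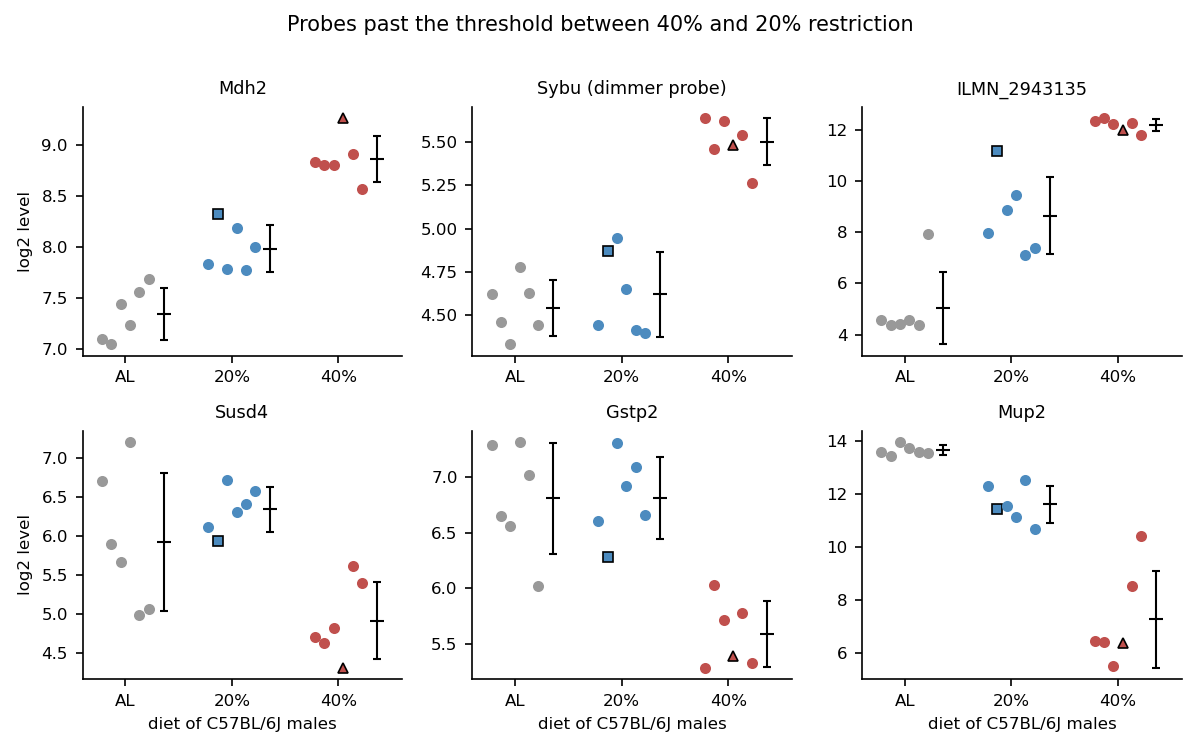
Log2 levels of 6 probes past the threshold, by diet of the C57BL/6J males (6 arrays each). Circles are arrays, the triangle is array CM-106 and the square is array CM-52, and the bars are the mean ± SD. In each panel no array at 40% lies within the range of the 20% arrays.

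Besides Mup2, 3 named genes passed by their brightest probe, with and without array CM-106. Mdh2, the mitochondrial malate dehydrogenase of the citric acid cycle, rose 1.85-fold (log2 0.88 ± 0.13, adjusted p = 0.0152). Its levels were 8.57, 8.82 and 9.27 at 40%, 7.77, 7.92 and 8.33 at 20% and 7.05, 7.34 and 7.68 in AL males. Each diet lay above the one before it with no overlap. Without array CM-106, which held its highest value, the rise was 0.81 ± 0.12 (adjusted p = 0.0285), and over single-array removals it ran from 0.81 to 0.95 with adjusted p-values from 0.00623 to 0.0613, missing the threshold without array CM-57, CM-51, CM-53, CM-103 or CM-101.

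Susd4, an inhibitor of complement activation and a male-biased liver gene, fell 2.69-fold (log2 -1.43 ± 0.21, adjusted p = 0.0152). Its levels were 4.31, 4.76 and 5.61 at 40% and 5.94, 6.36 and 6.71 at 20%, which did not overlap, and 4.99, 5.79 and 7.21 in AL males, which overlapped both. Susd4 was above background on 5 of 6 arrays at 40%, so background may limit the size of its fall. Without array CM-106, its lowest, the fall was -1.31 ± 0.19 (adjusted p = 0.0285). It missed the threshold without array CM-57, CM-53, CM-103 or CM-101 (adjusted p up to 0.0613).

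Gstp2, a glutathione S-transferase of the pi class that conjugates electrophiles, fell 2.34-fold (log2 -1.22 ± 0.18, adjusted p = 0.0152; without array CM-106, -1.18 ± 0.18, adjusted p = 0.0327). Its levels were 5.29, 5.55 and 6.03 at 40%, 6.29, 6.79 and 7.31 at 20% and 6.02, 6.84 and 7.32 in AL males. The 20% group did not stand apart from AL. The neighbouring Gstp1, a paralog, differed by -0.59 ± 0.26 (adjusted p = 0.386), with 3 probes between -0.64 and -0.25, so how much each gene gives to these signals is uncertain. Gstp2 missed the threshold without array CM-57, CM-53 or CM-101, and on the authors' z-scores its adjusted p was 0.139.

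Sybu encodes syntabulin, a linker of vesicles to kinesin motors. Its dimmer probe, singled out because it passed, rose by 0.88 ± 0.12 on the log2 scale (adjusted p = 0.0152, and 0.0285 without array CM-106). The levels were 5.27, 5.51 and 5.64 at 40%, 4.39, 4.55 and 4.95 at 20% and 4.33, 4.54 and 4.78 in AL males, and the probe was above background on 2 of 6 arrays at 20% and on all 6 at 40%. Sybu's brighter probe differed by 0.86 ± 0.17 (adjusted p = 0.0969) with overlapping groups. Both probes were near background at 20%, and the dimmer one missed the threshold without array CM-57 or CM-101.

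The remaining 2 probes that passed have no gene symbol in the table used. ILMN_2943135 rose 11.5-fold (log2 3.53 ± 0.52, adjusted p = 0.0152; without array CM-106, 3.56, adjusted p = 0.0327). Its levels were 11.8, 12.2 and 12.4 at 40%, 7.11, 8.41 and 11.2 at 20%, and 4.39, 4.49 and 7.93 in AL males. The 40% and 20% groups did not overlap, and the highest 20% value was on array CM-52. ILMN_2943135 passed in 7 of the 12 single-array removals (adjusted p up to 0.0613). ILMN_2731963 rose by 3.46 ± 0.58 (adjusted p = 0.0406, and 0.0877 without array CM-106). Its groups overlapped by array CM-52, which was at 10.9, while the lowest 40% level was 10.8. ILMN_2731963 passed in only 1 of the 12 single-array removals (adjusted p up to 0.146).

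Other male-biased liver genes were mostly lower and female-biased ones mostly higher at 40%, but few passed. Of 17 tested male-biased liver genes, 1 passed, Susd4, against 0.0414% of all genes called lower. Of the 17, 15 were lower at 40%, with a median difference of -0.62 (-0.61 without array CM-106) against 0.0208 over all genes. The fit of all 72 arrays called 3 of them lower (34 of 7241 genes were lower, 0.47%): Susd4, Serpina1e and Serpina12. In that fit without array CM-106 none of these 3 passed (adjusted p = 0.0634, 0.0834 and 0.055). Serpina1e, an alpha-1 antitrypsin, had levels of 6.30, 6.99 and 8.99 at 40%, 7.62, 9.73 and 11.8 at 20% and 10.2, 13.4 and 14.7 in AL males. It differed by -2.22 ± 0.67 (adjusted p = 0.304; in the 72-array fit 0.0229). Serpina12, vaspin, an adipokine-like serpin, differed by -1.93 ± 0.73 (adjusted p = 0.336; 0.00295), and arrays CM-113 and CM-114 were above the other 40% arrays, at 9.74 and 8.77 against 4.67 to 6.29. The SE of Serpina12 was only 0.38 in the 72-array fit, although its SD at 40% was 2.03. Cyp4a12a, a male-specific fatty acid omega-hydroxylase, differed by -1.93 ± 0.66 (adjusted p = 0.307; 0.0976).

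Of 12 tested female-biased genes 0 passed and 9 were higher at 40%, with a median difference of 0.44 (0.46 without array CM-106). Cyp2b13, a steroid-metabolising cytochrome P450 that is higher in female liver, had levels of 7.41, 10.2 and 11.1 at 40%, 4.26, 5.06 and 9.90 at 20% and 4.47, 5.49 and 6.80 in AL males. It was above background on 3 of 6 arrays at 20%. The groups overlapped through array CM-52, which held the 9.90, above the 40% arrays CM-106 (7.41) and CM-113 (9.57). Cyp2b13 differed by 3.80 ± 0.87 (adjusted p = 0.211; without array CM-106, 4.28 ± 0.83, adjusted p = 0.141). Without array CM-52 it differed by 4.57 with an adjusted p of 0.00867, the lowest of the range over single-array removals, whose highest was 0.433. It passed in the 72-array fit (adjusted p = 0.00051) and was the only one of the 12 that did (27 of 7241 genes were higher there, 0.373%). Its SE was 0.65 in that fit, against 0.87 in the fit of the 12 arrays. Vldlr, the receptor for very-low-density lipoprotein, differed by 1.01 ± 0.24 by its brightest probe (adjusted p = 0.211; in the 72-array fit 0.0661), with overlapping groups. Its dimmer probes ILMN_2515601 and ILMN_1218264 differed by 0.995 and 1.01 and passed in the 72-array fit (adjusted p = 0.0377 and 0.0468). Neither did so there without array CM-106 (adjusted p = 0.15 for each).

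Array CM-52 lay toward the 40% group, and arrays CM-113 and CM-114 toward the 20% group, for several of these genes. Array CM-52 had the lowest level of its group for Mup5, Mup20, Mup21, Cyp4a12a, Serpina1e and Serpina12 and the highest for Cyp2b13. For Mup2 and Mup6 the lowest 20% array was CM-58 instead, at 10.7 and 9.78, with array CM-52 at 11.45 and 10.17. Arrays CM-113 and CM-114 had the highest levels of their group for Mup2, Mup5, Mup6, Mup20, Mup21, Serpina1e and Serpina12. The mean level of the 5 urinary protein genes ran from 10.7 to 12.0 in AL males, from 8.16 to 10.7 at 20% and from 5.28 to 8.94 at 40%. The mean of the 12 female-biased genes ran from 5.20 to 6.43, from 5.69 to 7.39 and from 6.64 to 7.27. Array CM-52 had 34.95% of probes above background, the lowest of the 12, and the part of signal quality in its position was not tested.

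**Figure D2:**
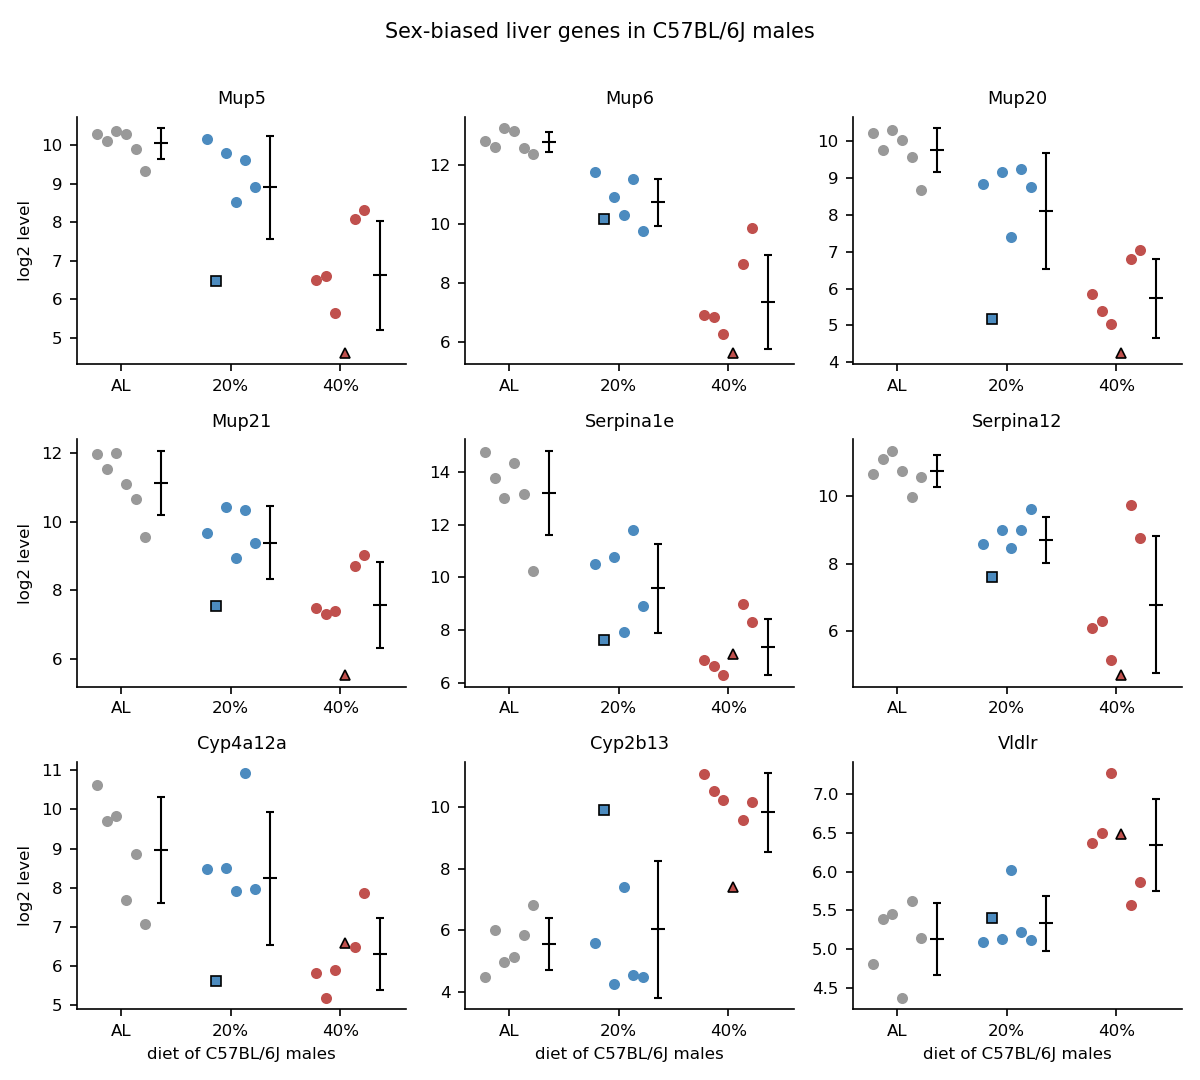
Log2 levels of 8 sex-biased genes and Vldlr in C57BL/6J males by diet (circles, 6 arrays a group; triangle, array CM-106; square, array CM-52; bars, mean ± SD). The mean levels of the urinary proteins are lower at 20% than in AL males and lower again at 40%, and array CM-52 lies among the 40% arrays for Mup20, Cyp4a12a and Cyp2b13.

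The growth hormone and insulin-like growth factor axis did not separate the groups by test. Of 12 tested genes 0 passed in either fit, with 6 higher and 6 lower and a median of -0.0395 (-0.0891 and 4 higher without array CM-106). Igf1, the circulating growth factor that growth hormone induces, had levels of 10.6, 10.8 and 11.1 at 40%, 10.8, 11.2 and 11.3 at 20% and 11.1, 11.4 and 11.8 in AL males, which overlapped, and differed by -0.26 ± 0.12 (adjusted p = 0.395). Ghr, the growth hormone receptor, differed by -0.41 ± 0.28, and by -0.12 ± 0.15 without array CM-106, which held its lowest level, 7.92. Socs2, a feedback inhibitor induced by growth hormone, differed by 1.11 ± 0.43 (adjusted p = 0.342), and 0.78 ± 0.36 without array CM-106.

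Lists of fuel use had 0 members past the threshold between 40% and 20% in the fit of the 12 arrays. Of 35 tested genes of fatty acid oxidation, ketogenesis and PPARα targets 0 passed, with 10 higher and 25 lower and a median of -0.113 (-0.0351 and 17 higher without array CM-106). Cyp4a14, an omega-hydroxylase of fatty acids under the control of PPARα, had levels of 11.1, 12.0 and 13.2 at 40%, 9.95, 11.3 and 12.4 at 20% and 6.62, 9.25 and 10.9 in AL males, and differed by 0.76 ± 0.40 (adjusted p = 0.455). Ppara, the receptor itself, was lower by 0.74 ± 0.16 on the log2 scale, with an adjusted p of 0.211 at 12 arrays and 0.014 in the 72-array fit (0.120 there without array CM-106), and its groups overlapped only by array CM-114.

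Of 14 tested genes of gluconeogenesis and fasting 0 passed, 12 were higher and the median was 0.30, which became 0.0782 without array CM-106. Pck1, which commits carbon to glucose synthesis, had levels of 7.87, 8.12 and 8.44 at 40%, 7.19, 7.73 and 8.56 at 20% and 6.46, 6.62 and 7.13 in AL males. It differed by 0.41 ± 0.19 (adjusted p = 0.397), and both restricted groups lay above AL. G6pc, the enzyme that releases glucose, differed by -0.0967 ± 0.21. Ppargc1a, a coactivator of the fasting response, differed by 0.39 ± 0.34, and by 0.10 ± 0.25 without array CM-106, which held its highest value. Of 18 lipogenesis genes 0 passed and 12 were lower (median -0.155, and -0.0786 without array CM-106). Srebf1, the transcription factor of lipid synthesis, had medians of 5.58 at 40%, 5.70 at 20% and 6.91 in AL males, a difference of -0.45 ± 0.26 (adjusted p = 0.506). Scd1, the desaturase of stearate, differed by 0.27 ± 0.24.

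Of 17 tested circadian clock genes 0 passed in either fit, with 12 higher and a median of 0.13 (0.107 without array CM-106). Dbp, a clock-output transcription factor, had levels of 8.94, 9.42 and 9.77 at 40%, 8.25, 9.23 and 10.7 at 20% and 5.15, 5.96 and 7.47 in AL males. Its difference was 0.014 ± 0.35 (adjusted p = 0.99), while 20% against AL was 3.22 ± 0.32 in the 72-array fit. Per2, a core repressor of the clock, differed by -0.0365 ± 0.19, and Arntl, a core activator, by 0.28 ± 0.17.

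Oxidative phosphorylation had 68 tested genes, the largest of the lists. None passed at 12 arrays, 36 were higher and the median was 0.0216 (0.0438 and 40 higher without array CM-106). Ndufs3 of complex I differed by 0.0334 ± 0.087, Cox4i1 of complex IV by 0.20 ± 0.11 and Atp5a1 of ATP synthase by 0.45 ± 0.12 (adjusted p = 0.304). In the 72-array fit Atp5c1 passed higher and Atp5j and Ndufa3 passed lower, against 0.373% of all genes higher and 0.47% lower, and all 3 lost their calls in that fit without array CM-106 (adjusted p = 0.0928, 0.123 and 0.233).

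Interferon response genes were mostly lower at 40%. Of 27 tested genes 0 passed at 12 arrays, 25 were lower and the median was -0.43 (-0.33 without array CM-106). The mean level of the list was 5.78, 6.21 and 6.76 (lowest, median, highest) at 40% and 6.04, 6.48 and 8.04 at 20%, so the groups overlapped. Isg15, a ubiquitin-like protein induced by interferon, had levels of 4.78, 5.13 and 5.73 at 40%, 5.05, 5.57 and 8.19 at 20% and 5.69, 6.50 and 6.83 in AL males, with overlapping restricted groups. It differed by -0.78 ± 0.41 (adjusted p = 0.455), and by -0.33 without array CM-57, which held the 8.19. Irf7, a transcription factor of that response, differed by -0.67 ± 0.37, and by -0.29 without array CM-57. Ifi27 passed in the 72-array fit alone, at -0.99 ± 0.22 (adjusted p = 0.01; 0.123 without array CM-106).

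Of 25 acute phase genes 0 passed and 21 were higher, with a median of 0.205 (0.0365 and 14 higher without array CM-106). Saa1, serum amyloid A, had levels of 4.47, 5.42 and 7.27 at 40% and 4.94, 5.43 and 5.74 at 20%, with the highest on array CM-106, and its difference was 0.24 ± 0.37 with that array and -0.0881 ± 0.26 without it. Haptoglobin (Hp) differed by -0.0574 ± 0.22 and Orm1, alpha-1 acid glycoprotein, by 0.13 ± 0.23 (-0.0424 ± 0.19 without array CM-106). Of 11 Kupffer cell and macrophage markers 0 passed and 8 were higher (median 0.105, and -0.0161 without array CM-106). Clec4f, a receptor restricted to Kupffer cells, differed by -0.14 ± 0.17 and Adgre1, a macrophage surface receptor, by 0.37 ± 0.29. Array CM-106 had the highest mean level of the macrophage markers among the restricted mice, 8.49, against 6.76 to 8.07 on the other 40% arrays and 7.14 to 7.69 at 20%. Its mean for the acute phase genes was 10.9, against 9.70 to 10.4, and for the gluconeogenesis and fasting genes 9.38, against 8.31 to 8.82. Fewer cells of a type and less RNA per cell cannot be told apart in whole liver.

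**Figure D3:**
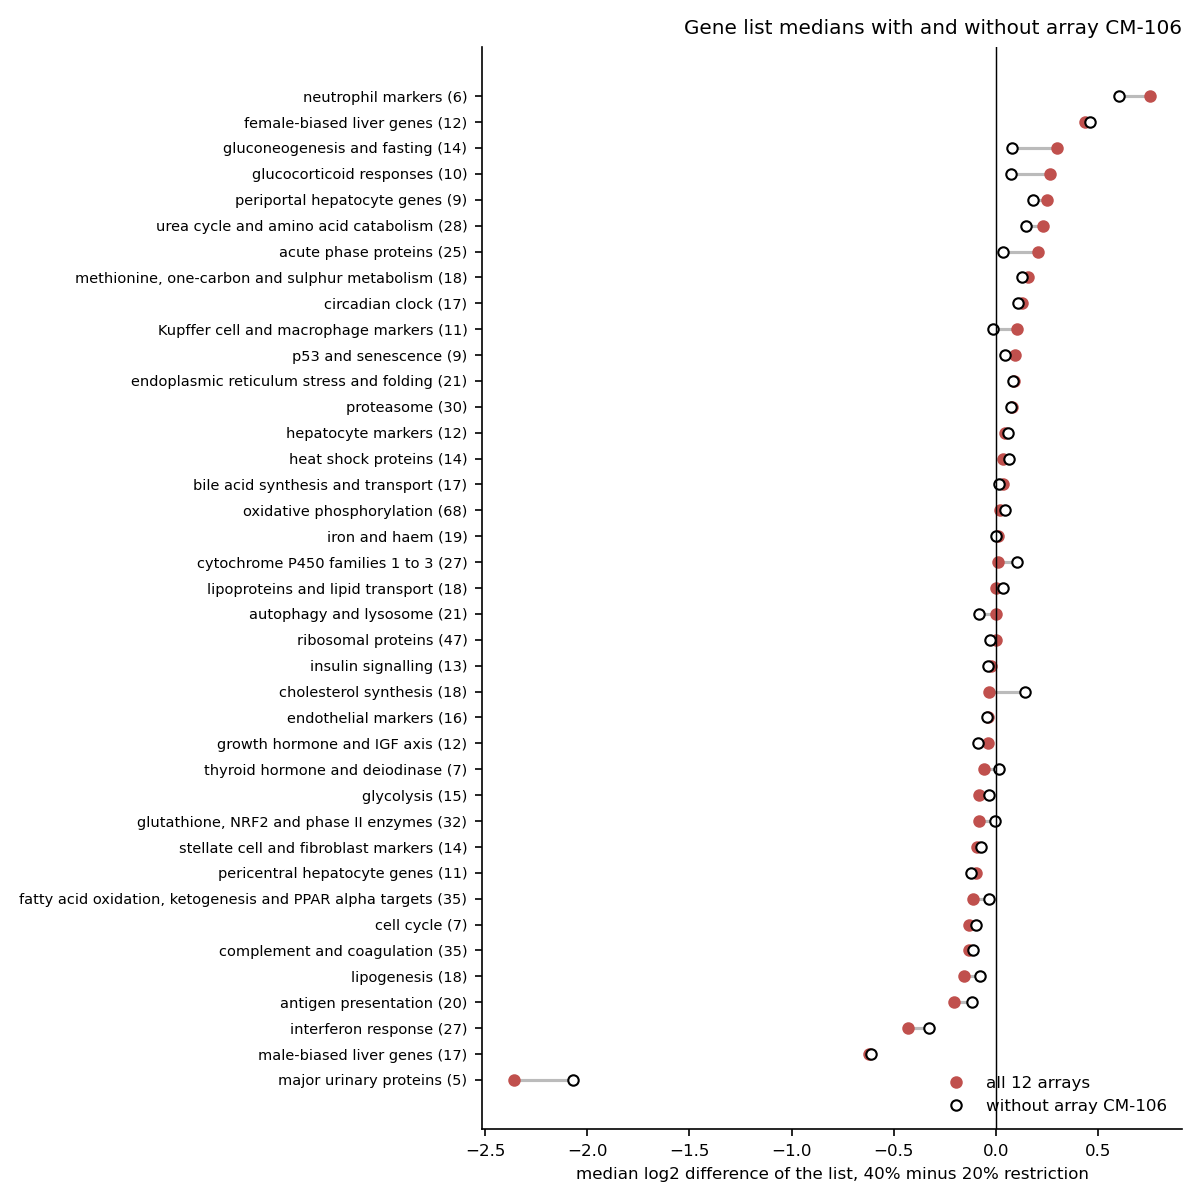
Median log2 difference, 40% minus 20%, of each of the 39 lists with at least 5 tested members (number tested in brackets), with all 12 arrays (filled) and without array CM-106 (open). The urinary proteins are the lowest at -2.36 and -2.07, and the medians of 26 of the 39 lists are nearer 0 without array CM-106.

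Over the 46 lists, 2 of the 723 tested genes passed (Mup2 and Susd4), both lower. Of all 7241 genes 3 passed lower (0.0414%) and 1 higher (0.0138%). Of 28 genes of the urea cycle and amino acid catabolism 0 passed and 20 were higher (median 0.23, and 0.147 without array CM-106). The 12 hepatocyte markers had a median of 0.0457 and the 47 ribosomal proteins one of -0.00131 (0.0603 and -0.0275 without array CM-106), each with 0 past the threshold. The 6 tested neutrophil markers had a median of 0.756 (0.603 without array CM-106) and 0 past the threshold. Their mean level ran from 5.07 to 7.56 at 20%, from 6.67 to 7.71 at 40% and from 6.83 to 8.85 in AL males, so the groups overlapped. The erythroid and adipocyte markers, with 2 tested genes each, had medians of -0.637 and -0.502 (-0.71 and -0.0663 without array CM-106), with 0 past the threshold.

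The same step was compared in the other strain and sex groups, within the 72-array fit, where C57BL/6J females had 547 probes past the threshold (5.31%), DBA2/J males 1054 (10.2%) and DBA2/J females 3 (0.0291%), against 83 in C57BL/6J males. A count past the threshold in one group and not in another does not show that the steps differ, so the difference of steps was tested. For C57BL/6J males against females 3 probes of 10311 differed (0.0291%), with 601 at an unadjusted p under 0.05. For C57BL/6J males against DBA2/J males 0 differed (0%), with 695 at an unadjusted p under 0.05.

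Cyp2b13 was one of the 3. Its step was 3.80 ± 0.65 in C57BL/6J males and -0.83 ± 0.65 in C57BL/6J females, a difference of 4.63 ± 0.92 (adjusted p = 0.0141). The females were already at 11.5 ± 0.28 (SD, n = 6) at 20% and at 10.7 ± 1.0 at 40%, and the males went from 6.03 ± 2.2 to 9.82 ± 1.3. These SDs were unequal while the test used a shared spread, so the adjusted p for Cyp2b13 is uncertain. Pa2g4, a binding partner of ErbB3 that acts in growth control, had a step of -0.34 ± 0.11 in males and 0.48 ± 0.11 in females, a difference of -0.82 ± 0.15 (adjusted p = 0.00478). One probe of Trip12, a ubiquitin ligase, had steps of 0.17 ± 0.10 and 0.96 ± 0.10, a difference of -0.79 ± 0.14 (adjusted p = 0.00478). This probe is dimmer than the brightest Trip12 probe, for which the difference was -0.12 (adjusted p = 0.999).

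The genes called in C57BL/6J males had the following steps in the other groups. Mup2 differed by -2.41 ± 0.74 in DBA2/J males (adjusted p = 0.0254), -1.52 ± 0.74 in C57BL/6J females and 0.41 ± 0.74 in DBA2/J females. Susd4 differed by -1.77 ± 0.31 in DBA2/J males (adjusted p = 0.000275) and by -0.13 and -0.24 in the females of C57BL/6J and DBA2/J. Gstp2 differed by -2.44 ± 0.32 in DBA2/J males (adjusted p = 1.53e-06) and by -0.34 and 0.10 in the females. The dimmer Mup2 probe differed by -1.15 ± 0.52 in DBA2/J males and did not pass (adjusted p = 0.145). In C57BL/6J males the 72-array calls of Susd4 and Gstp2 were lost without array CM-106 (adjusted p = 0.0634 and 0.145), and that of Mup2 was not (adjusted p = 0.00297). The difference between the steps of males and females of C57BL/6J did not pass (adjusted p = 0.652 for Mup2, 0.484 for Susd4 and 0.861 for Gstp2). Mdh2 differed by 0.61 ± 0.16 in C57BL/6J females (adjusted p = 0.0173), 0.37 ± 0.16 in DBA2/J males and 0.41 ± 0.16 in DBA2/J females, positive in 4 of 4 groups.

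**Figure D4:**
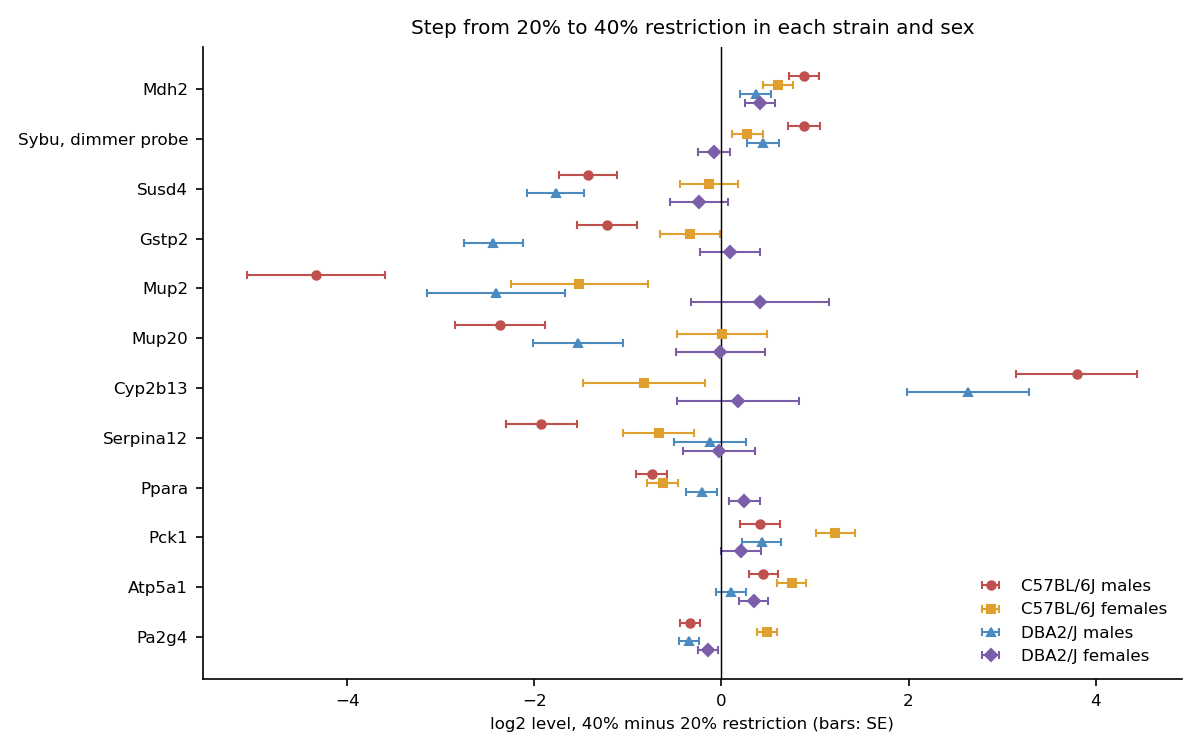
Step from 20% to 40% restriction (log2 difference ± SE, 72-array fit, 6 arrays per diet) for 12 genes in the 4 strain and sex groups. Mup2, Mup20, Susd4 and Gstp2 lie below 0 in the males of both strains, and Cyp2b13 lies above 0 in them.

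Each level of restriction was also set against AL. In the 72-array fit 2059 probes (20%) passed for 20% against AL and 3177 (30.8%) for 40% against AL in C57BL/6J males. These comparisons share the 20% or the 40% arrays with the 40% against 20% comparison, and their values are given side by side only. Mup2 was lower by 2.03 ± 0.73 on the log2 scale at 20% than in AL, and by 4.33 ± 0.73 at 40% than at 20%. Mdh2 was higher by 0.64 ± 0.16 and by 0.88 ± 0.16 in those 2 steps. Gstp2 differed by 0.00 ± 0.32 and by -1.22 ± 0.32, and Susd4 by 0.42 ± 0.31 and -1.43 ± 0.31. Per2 differed by 1.86 ± 0.22 and by -0.0365 ± 0.22. ILMN_2943135 was higher by 3.60 ± 0.63 and 3.53 ± 0.63, but it was above background on only 1 of 6 AL arrays, so the first of these values is limited by background. Mup2, Mdh2 and ILMN_2943135 passed in both steps with the same sign in this fit, whereas Gstp2 and Susd4 passed in the second step and Per2 in the first. Without array CM-106 Gstp2 and Susd4 did not pass in the second step of this fit (adjusted p = 0.145 and 0.0634).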

How the data were processed

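Liver total RNA was labelled with an Illumina amplification kit, per the labels' protocols, and the submitters' processing notes name GenomeStudio 2011.1. The authors deposited probe intensity per array, not normalized between arrays, with a detection p-value each, per the file headers. Their second deposited table holds a score per probe, equal to the z-score of log10 intensity within the array to within 1e-9 for 72 of 72 arrays. Signal columns carry an array number and no replicate number.

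Intensities of 72 arrays were background-corrected from the detection p-values with an offset of 16, quantile-normalized and put on the log2 scale (neqc, limma 3.58.1, R 4.3.3, statmod 1.5.0). The test was limma's moderated statistic, two-sided, on 12 arrays, with Benjamini-Hochberg adjustment over 10311 probes; the 72-array fit was an alternative and the test of differences between groups of mice. Errors are SE unless called SD, and 6 arrays a group limit the precision. Genes were represented by their brightest tested probe (1814 genes had several). Of the probes 23978 had 1 symbol and 1719 none (606 of them tested), and a check against RefSeq names of GRCm38.p6 updated 0. Of 1067 genes in 46 lists 931 were named on the arrays and 723 tested. Named were genes past the threshold with and without array CM-106, up to 10 each way, key members of lists and up to 6 called members a list. Sybu, Mup5, Mup6, Mup21, Serpina1e, Serpina12, Ppara, Vldlr, Ifi27, Gstp1, Atp5c1, Atp5j, Ndufa3, Trip12 and Pa2g4 were named after their values were seen. The comparison, lists and motifs were chosen with earlier results of these data known. The fit was tested on simulated data.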

Additional observations from a re-analysis of the deposited data

Results flagged for a closer look

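For 9 of 118 values checked, 1 array lay farther from the rest of its group of 6 than a Dixon criterion allows, and chance flags about 1 in 20. In the 20% group array CM-57 was above the nearest other array by 2.42 for Isg15 and 1.84 for Irf7 on the log2 scale, and array CM-56 was below it by -0.856 for Hp and above it by 0.608 for Vldlr. In the 40% group array CM-106 was away by -1.59 for Ghr, 1.40 for Ppargc1a and -1.33 for Ifi27, array CM-105 by -0.329 for Atp5a1, and array CM-113 by -0.713 for Clec4f.

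The step from 20% to 40% in C57BL/6J males differed from that in C57BL/6J females by test for 3 probes, by 4.63 on the log2 scale for Cyp2b13 (adjusted p = 0.0141, limma), -0.821 for Pa2g4 (adjusted p = 0.00478) and -0.79 for a probe of Trip12 (adjusted p = 0.00478).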

How the results depend on the processing

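Beside 8 probes past the threshold, 4 higher and 4 lower, 5 passed without array CM-106 (3 and 2), 5 on the authors' z-scores (2 and 3), 4 among probes detected on all 12 arrays (2 and 2), 7 with quantile normalization, 11 with array weights, and 0 without a filter on dim probes (2037 at an unadjusted p under 0.05). The 72-array fit gave 83 (41 and 42), and 19 without array CM-106 (9 and 10), a setting chosen after seeing the data. With the replicate block on the z-scores 0 passed (928 at an unadjusted p under 0.05). Same-numbered mice deviated together in 1 of 6 pairs (correlations -0.13 to 0.37), and 1 of 6 samples correlated best with its own number. No label says what the numbers mark, and this check cannot show whether same-numbered mice shared a litter or day. Leaving out each array gave 0 to 13 probes, 0 to 7 higher and 0 to 6 lower. Against C57BL/6J females 3 probes differed, 5 with quantile normalization and 5 on z-scores, also without the DBA2/J male whose strain entry conflicts, and 2 to 6 over single-array removals. Against DBA2/J males 0 differed, 1 with quantile normalization, on z-scores with and without that male, or with no filter, and 0 to 1 over removals.

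The sign turned without array CM-106 for Per2 (0.107), Saa1 (-0.0881) and Orm1 (-0.0424), the same in the 72-array fit, and with array weights for Per2 (0.0576) and Dbp (-0.0781). Over single-array removals G6pc ran from -0.218 to 0.0513, Per2 from -0.125 to 0.107, Dbp from -0.215 to 0.278, Saa1 from -0.0881 to 0.472, Hp from -0.239 to 0.0678, Orm1 from -0.0424 to 0.229 and Clec4f from -0.208 to 0.0178. The causes were not tested. Signal near background limits the Sybu and Cyp2b13 levels at 20% and those of ILMN_2943135 in AL males. It may also limit the size of some falls at 40%. Susd4, Mup5, Mup20, Srebf1, Irf7 and the dimmer Mup2 probe were each above background on 5 of 6 arrays there.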

Other observations

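Several genes outside the lists passed in the 72-array fit alone, with and without array CM-106 there, and were picked after their values were seen. Nedd8, the ubiquitin-like modifier of cullin ligases, had mean levels of 8.92 ± 0.18 (SD, n = 6) at 40% and 9.39 ± 0.17 at 20%, a difference of -0.47 ± 0.11 (adjusted p = 0.211 in the fit of the 12 arrays and 0.00107 in the 72-array fit). Ubl5, another ubiquitin-like protein, differed by -0.46 ± 0.11 (adjusted p = 0.215 and 0.00051). Both probes of Sdf2, an endoplasmic reticulum protein, were lower, by -0.44 ± 0.093 and -0.42 ± 0.093 (adjusted p = 0.194 and 0.211 at 12 arrays). Bloc1s1, a subunit of a complex of lysosome-related organelles, differed by -0.60 ± 0.15 (adjusted p = 0.255 and 0.00108). For Nedd8, Ubl5, Sdf2 and Bloc1s1 the 40% and 20% groups did not overlap, as for 0.525% of all genes in that direction.

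The following members of the lists were also picked after their values were seen, and none passed in the fit of the 12 arrays. Cyp1a2, a P450 of the pericentral hepatocytes, differed by -0.58 ± 0.14 (adjusted p = 0.234). Cyp2f2, a P450 of the periportal ones, differed by -0.55 ± 0.13 (adjusted p = 0.211). Each had groups that did not overlap, as had 0.525% of all genes in that direction. Of 11 pericentral genes tested 8 were lower (median -0.0953, and -0.12 without array CM-106). Of 9 periportal genes tested 6 were higher (median 0.25, and 0.184 without array CM-106), so Cyp2f2 went against most of its list. Arg1, the arginase of the urea cycle and also on the periportal list, differed by 0.45 ± 0.14 (adjusted p = 0.304). Of 11 macrophage markers tested 0 passed, with a median difference of 0.105, and -0.0161 without array CM-106. Among them the scavenger receptors Marco and Cd163 differed by 1.37 ± 0.36 and 1.03 ± 0.35 (adjusted p = 0.287 and 0.307), while C1qa and C1qc differed by -0.0763 ± 0.19 and 0.0193 ± 0.26. Of 6 neutrophil markers tested 0 passed, with a median of 0.756, and 0.603 without array CM-106. S100a8, a neutrophil protein, differed by 1.39 ± 0.64 (adjusted p = 0.397). What part these cells had in the results was not tested.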
